A study of Mus musculus with 2 samples.

Results

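Interferon gamma and the proteins that receive and limit its signal were read in CD45+ cells sorted from mouse tumours. The members were chosen by gene symbol, as 7 of the 32285 genes listed: the cytokine gene Ifng, the receptor genes Ifngr1 and Ifngr2, the kinase genes Jak1 and Jak2, and the response genes Irf1 and Socs1. All 7 had UMIs in both libraries. All mice carried B16F10-OVA melanoma cells under the skin, a transplanted tumour line that makes ovalbumin, an antigen T cells can be traced against. Injections were of PBS, a saline buffer, in the control group and of UDSP-Hep, an agent the labels do not explain, in the other, on days 10, 12, 14 and 16. On day 19 CD45+ cells from 3 tumours of each group went into 1 droplet library, so no cell can be assigned to an animal and neither group has a replicate. Strain, sex and age of the mice are not given in the labels.

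Interferon gamma is the cytokine that activated NK cells and T cells release, and in tumours it is known for raising antigen presentation, PD-L1 and the chemokines that draw T cells in. It binds a receptor of 2 chains: IFNGR1, which holds the cytokine and carries the kinase JAK1, and IFNGR2, which brings JAK2. Signalling from the kinases switches on genes such as Irf1, a transcription factor that extends the response, and Socs1, whose product binds the kinases and ends it. Because IFNGR2 is needed for the signal, its amount is known to limit how T cells respond.

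Many genes that answer the interferon carry a palindromic element called GAS, searched here as TTCNNNGAA, and IRF proteins bind an element searched as GAAANNGAAA on both strands. All 7 members matched the RefSeq promoter table (GRCm38.p6), in 8 windows, and the 250 bases before each start were searched. GAS letters stood in 7.02% of all 32851 promoters in the table and IRF element letters in 2.98%. Of the 7 members, 3 held a match. The promoters of Irf1 and Socs1 are shown because these response genes carry different elements. They were chosen after the ratios were seen, and a part of the elements in any ratio was not tested. Capitals mark the matched letters, a GAS match in Irf1 and a pair of overlapping IRF element matches in Socs1.
Irf1, chr11:53769764-53770013, + strand: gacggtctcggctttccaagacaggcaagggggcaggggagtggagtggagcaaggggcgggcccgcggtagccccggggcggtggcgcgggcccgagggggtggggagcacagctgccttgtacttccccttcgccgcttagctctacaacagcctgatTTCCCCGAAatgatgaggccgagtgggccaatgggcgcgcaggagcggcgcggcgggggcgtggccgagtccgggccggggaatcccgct
Socs1, chr16:10785537-10785786, - strand: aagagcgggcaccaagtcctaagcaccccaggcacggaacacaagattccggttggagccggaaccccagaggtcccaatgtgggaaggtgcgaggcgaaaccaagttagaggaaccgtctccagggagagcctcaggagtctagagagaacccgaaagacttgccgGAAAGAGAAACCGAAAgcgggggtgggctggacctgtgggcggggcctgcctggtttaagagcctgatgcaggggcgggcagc
The GAS letters of Irf1 lay 90 to 82 bases before its start, and a second Irf1 window held neither motif. The Socs1 matches lay 83 to 68 bases before its start, with no GAS letters in the window. The Ifng window held GAS letters 249 to 241 bases before its start. A match is a string of letters and does not show that a factor was bound in these cells.

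The genes are all protein-coding (GENCODE M21, GRCm38). Ifng (ENSMUSG00000055170) and Ifngr1 (ENSMUSG00000020009) are both on chromosome 10, at 118441046 to 118445892 and at 19591949 to 19610229. Ifngr2 (ENSMUSG00000022965) and Socs1 (ENSMUSG00000038037) are both on chromosome 16, at 91547072 to 91565623 and at 10782240 to 10785536. Irf1 (ENSMUSG00000018899) is on chromosome 11 at 53770014 to 53778374, Jak1 (ENSMUSG00000028530) on chromosome 4 at 101152367 to 101265282, and Jak2 (ENSMUSG00000024789) on chromosome 19 at 29251828 to 29313080.

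The libraries held 7379 barcodes and 74685827 UMIs for PBS, and 7872 barcodes and 64241224 UMIs for UDSP-Hep, with 25 barcode sequences in common. After filtering, 7134 and 7675 cells remained, with median depths of 8115.5 and 5793 UMIs. Cells were placed in classes by counting the marker genes detected in each, and no member was a marker. In this way 555 PBS and 454 UDSP-Hep cells were gated as CD8 T cells, 418 and 1388 as NK cells, 3592 and 2295 as macrophages and monocytes, and 444 and 224 as dendritic cells. The class called other T cells holds T cells with no UMI of a CD8 or CD4 gene, or with conflicting ones, and had 217 and 263 cells. Cells with markers of more than 1 lineage, 468 and 769, were left out of the classes. The same markers set the gates, so their sums within a class are not an independent check of it. NK markers summed to 3916 and 4026 UMIs scaled to a common class total (CPM) in gated NK cells. All 6 T cell markers together gave 55.8 and 50.5 CPM there. Some markers of other cells differed between the libraries within a class. Neutrophil markers summed to 6.62 and 56.2 CPM in CD8 T cells (Cxcr2 and Mmp9 were at 0 in PBS, no marker in UDSP-Hep) and to 153 and 229 CPM in macrophages and monocytes (all 8 detected), and neutrophils were 0.631% and 7.73% of the kept cells. Macrophage and monocyte markers, all 6 detected in each library, summed to 124 and 217 CPM in CD8 T cells. The part of these cells' RNA in the results below was not tested.

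With 1 library a group there is no test, and no p-value is given. Each level is the UMIs of a gene over all UMIs of a class, in CPM, PBS first. Each ratio is UDSP-Hep over PBS with a 95% exact interval that covers counting error only, and neither the spread between animals nor that between cells. The words counted as higher mean a ratio of 1.5 or more with an interval wholly above equality, and counted as lower the mirror image, over genes with 20 or more UMIs in the class.

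Most Ifng UMIs were in lymphocytes, and the classes that held them differed between the libraries. The gated lymphocyte classes together held 70.8% (95% interval 69.1 to 72.4) of the Ifng UMIs in PBS and 70.0% (68.5 to 71.6) in UDSP-Hep. Ifng UMIs numbered 3127 in PBS and 3405 in UDSP-Hep, 42.1 and 53.3 CPM of all kept cells, or 0.438 and 0.444 per kept cell. CD8 T cells held 53.7% (95% interval 52.0 to 55.5) of the Ifng UMIs in PBS and 24.0% (22.5 to 25.4) in UDSP-Hep. NK cells held 10.2% (9.16 to 11.3) and 20.9% (19.6 to 22.3). The NK share of Ifng was the larger in UDSP-Hep although the level within NK cells was the lower, since NK cells were 5.86% of the kept cells in PBS and 18.1% in UDSP-Hep. With each cell thinned to 1000 UMIs, which takes weight from the deepest cells, the NK shares were 27.9% and 35.7%. Other T cells held 3.45% and 16.0% of the Ifng UMIs, and CD4 T cells 1.5% and 7.40%. The cells of mixed lineage held 26.0% and 26.5%, mostly cells with markers of both T cells and phagocytes (618 of 812 UMIs in PBS, 642 of 902 in UDSP-Hep). These cells had median depths of 18902.5 and 17212 UMIs, and how many are doublets was not tested.

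**Figure D1:**
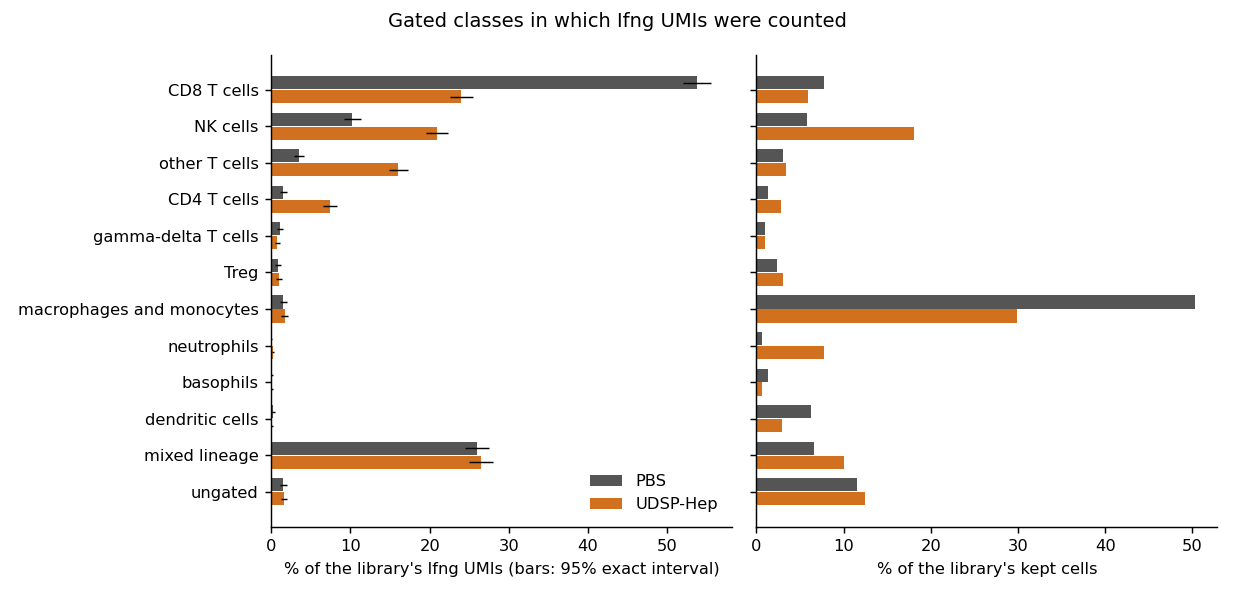
Share of each library's Ifng UMIs (left, percent, with 95% exact intervals) and of its kept cells (right, percent) by gated class, PBS in grey and UDSP-Hep in orange. CD8 T cells hold the longest bar in PBS (53.7%), while in UDSP-Hep the NK bar (20.9%) comes close to the CD8 bar (24.0%).

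Within the classes, Ifng in CD8 T cells stood at 271 CPM in PBS and 262 CPM in UDSP-Hep, a ratio of 0.966 (0.888 to 1.05), so the interval included equality. In NK cells it was 152 and 106 CPM (0.70, 0.613 to 0.801), lower in UDSP-Hep by less than the 1.5-fold that counts. CD8 T cells were above NK cells in each library, by 1.78 (1.58 to 2.02) in PBS and 2.46 (2.22 to 2.73) in UDSP-Hep. Regulatory T cells (Treg), which restrain other T cells, were low in Ifng at 18.3 and 17.1 CPM (0.933), a ratio that was 7.89 with clusters in place of gates. Gamma-delta T cells stood at 82.8 and 50.1 CPM (0.605, 0.349 to 1.04), and their ratio was 0.115 under the stricter gate. CD4 T cells stood at 82.0 and 203 CPM (2.47, 1.81 to 3.45) and other T cells at 80.1 and 345 CPM (4.30, 3.5 to 5.34), and both counted as higher. Of the genes tested in other T cells, 4.84% counted as higher and 3.05% as lower. These shares were 5.64% and 3.42% in CD4 T cells, 5.07% and 2.58% in NK cells, and 12.7% and 9.13% in CD8 T cells.

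The higher values in CD4 and other T cells rested on a handful of cells. In UDSP-Hep, 1 of the 263 other T cells held 347 of the 546 Ifng UMIs, 1.75% of all the RNA molecules counted in that cell. Without the top cell of each library the ratio was 1.82 (1.42 to 2.36), and with at most 10 Ifng UMIs counted per cell it was 1.15 (0.881 to 1.5). In CD4 T cells, 4 of the 218 UDSP-Hep cells had 10 or more UMIs and held 75% of that class's Ifng. The CD4 ratio was 2.34 (1.64 to 3.43) without the top cells and 1.01 (0.709 to 1.46) with the limit of 10 UMIs. Both classes still counted as higher without the top cells, and neither did with the limit. With clusters in place of gates the CD4 ratio was 1.27. Shares of cells with any Ifng UMI were 21.2% and 17% of CD4 T cells, and 17.1% and 16.7% of other T cells. After thinning to 1000 UMIs they were 5.05% (1.66 to 11.4) and 6.42% (3.56 to 10.5), and 4.17% (1.92 to 7.76) and 6.11% (3.53 to 9.73), with overlapping intervals.

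CD8 T cells were as uneven. In PBS 32 of the 555 cells (5.77%) had 10 or more Ifng UMIs and held 64.0% of the class's Ifng, and in UDSP-Hep 18 of the 454 cells (3.96%) held 74.4%. The top cell held 320 UMIs in PBS, in a cell of 56215 UMIs, and 107 in UDSP-Hep, in a cell of 4898 UMIs. NK cells spread their Ifng more evenly: 2 of 418 and 3 of 1388 cells reached 10 UMIs, and they held 7.52% and 4.63% of it. The ratio in CD8 T cells moved with these few cells. It was 1.03 (0.939 to 1.13) without the top cell of each library, and 0.837 (0.741 to 0.943) with at most 10 UMIs counted per cell. Thinning each cell to 1000 UMIs gave 1.26 and clusters in place of gates gave 1.37, so the direction of Ifng in CD8 T cells depended on the setting. In NK cells the corresponding ratios were 0.719 without the top cells and 0.706 with the limit, close to the 0.70 of the whole class.

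**Figure D2:**
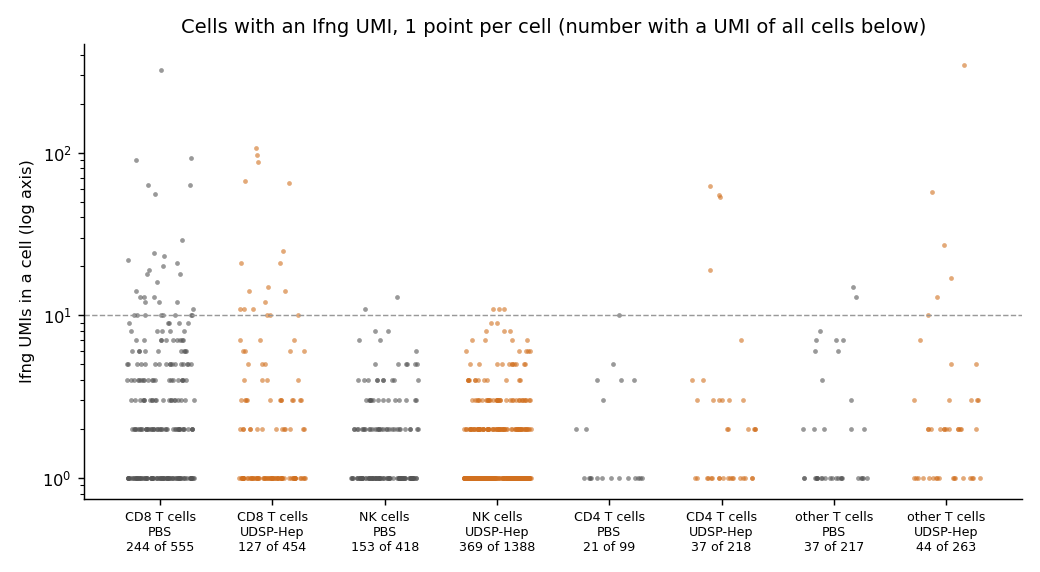
Ifng UMIs in each cell that had at least 1 (log axis, 1 point per cell, sideways scatter random), by class and library, with the number of such cells under each column and a dashed line at 10 UMIs. NK cells end near the line (13 and 11 UMIs at most), while single T cells reach 320 (CD8, PBS) and 347 (other T cells, UDSP-Hep).

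The share of CD8 T cells with an Ifng UMI was 44.0% in PBS and 28.0% in UDSP-Hep, at median depths of 8145 and 5557.5 UMIs. With each cell thinned to 1000 UMIs the shares were 12.5% (9.82 to 15.5) and 9.49% (6.95 to 12.6), with overlapping intervals. For NK cells, whose median depths were nearly equal at 4131.5 and 4089.5 UMIs, the shares were 36.6% and 26.6%, and after thinning 13.5% (10.4 to 17.2) and 8.69% (7.26 to 10.3). The thinned NK intervals did not overlap. In macrophages and monocytes, which should lack Ifng, thinned shares were 0.167% and 0.262% (1.17% and 2.40% unthinned, at median depths of 9124 and 9223 UMIs). Their Ifng level was 1.17 and 2.32 CPM, which counted as higher (1.98, 1.32 to 2.99). The summed T cell markers of this class stood at 12.0 and 17 CPM and its NK markers at 6.89 and 18.1 CPM, and the part of RNA from other cells was not tested. B cells, of which there were 48 and 63, had 0 Ifng UMIs in both libraries, which allows a level of up to 13.1 and 13.3 CPM (a limit of 3 UMIs, not the exact interval). The pDC, 85 and 34 cells, also had 0, which allows up to 3.51 and 8.8 CPM. Neutrophils had 0 UMIs in PBS (up to 24.3 CPM) and 5 in UDSP-Hep (3.34 CPM), and dendritic cells 8 and 1.

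The Ifng level differed between subsets of the CD8 T cells set by detected genes. Pdcd1 encodes the checkpoint receptor PD-1 and Tcf7 a transcription factor of stem-like and memory T cells. CD8 T cells with a Pdcd1 UMI and none of Tcf7 (329 and 121 cells) stood at 342 and 438 CPM of Ifng (1.28, 1.15 to 1.42), and those with a Tcf7 UMI and none of Pdcd1 (129 and 186 cells) at 58.7 and 25 CPM (0.426, 0.262 to 0.680). Cells with both (46 and 68 cells) had 75.7 and 100.2 CPM (1.32, 0.838 to 2.11). Cells with neither (51 and 79 cells) had 130.5 and 747 CPM (5.72, 4.11 to 8.16), the highest level of the 4 subsets in UDSP-Hep, where they held 265 of the 816 Ifng UMIs of CD8 T cells. The subset with Pdcd1 and no Tcf7 made up most of the CD8 T cells in PBS and the smaller part in UDSP-Hep. Cells with at least 2 of 4 cycling markers numbered 149 and 25, with 315 and 247 CPM of Ifng (0.785, 0.636 to 0.960), and the remaining CD8 T cells had 228 and 264 CPM (1.16, 1.04 to 1.29). A cell is placed in these subsets by single UMIs, so a deeper cell is more often called positive, and median depths ranged from 4222 to 18973 UMIs among them. In PBS 32 of the 555 CD8 T cells held 64.0% of the class's Ifng, and in UDSP-Hep 18 of the 454 held 74.4%. The subset ratios were not recomputed without the top cells or with a limit per cell, so a few cells may set them.

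Some genes that accompany T cell activation had more UMIs in the Ifng-positive CD8 T cells after thinning. Ccl4, a chemokine gene, gave 5.12 UMIs per cell with an Ifng UMI and 0.981 without in PBS (ratio 5.21, 4.53 to 5.99), and 11.8 and 0.783 in UDSP-Hep (15, 13 to 17.3). Ccl3, a related chemokine gene, had ratios of 6.26 and 16.6. Xcl1, a chemokine for cross-presenting dendritic cells, had ratios of 1.41 (0.636 to 2.80) in PBS and 15.8 (10.4 to 24.3) in UDSP-Hep. Tnfrsf9, which encodes the activation receptor 4-1BB, had ratios of 2.5 and 2.72, and Prf1, which encodes perforin, 1.76 and 2.93. Other genes of this kind had ratios in PBS with intervals that included equality: 1.45 (0.541 to 3.32) for Nr4a1, 1.10 (0.815 to 1.45) for Gzmb and 1.27 (0.822 to 1.89) for Pdcd1. Their ratios in UDSP-Hep were 3.41, 2.20 and 2.53, with intervals above equality. Tcf7 was lower in Ifng-positive cells in both libraries, with ratios of 0.422 (0.151 to 0.951) and 0.0564 (0.00142 to 0.319). For the response genes the intervals included equality: the Irf1 ratios were 1.42 (0.759 to 2.5) and 0.753 (0.336 to 1.48), and those of Socs1 1.21 and 0.836. The Ifng-positive cells held only 15 and 9 Irf1 UMIs and 5 and 5 Socs1 UMIs, so a difference in either direction was not resolved. In NK cells the Ccl4 ratios were smaller, 3.01 (2.5 to 3.61) and 1.51 (1.32 to 1.71). These ratios compare cells within a library, 69 and 43 Ifng-positive CD8 T cells and 56 and 120 such NK cells, and their intervals treat UMIs as independent.

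Ifngr1, the ligand-binding chain, was detected in every class apart from the 2 PBS eosinophils and was highest in NK cells, at 1268 CPM in PBS and 1675 CPM in UDSP-Hep. Gamma-delta T cells came next, at 1028 and 1068 CPM. Treg, at 848 and 951 CPM, and other T cells, at 820 and 1049 CPM, followed, and the intervals of these 2 classes overlapped in PBS while in UDSP-Hep other T cells overlapped with gamma-delta T cells. CD4 T cells stood at 667 and 862 CPM. In UDSP-Hep the intervals of CD4 T cells and CD8 T cells overlapped, while in PBS CD8 T cells lay apart below. Nonclassical monocytes, the patrolling monocytes, stood at 676 and 811 CPM and led the phagocytes, above macrophages at 162 and 267 CPM by 4.18 (3.87 to 4.50) and 3.04 (2.86 to 3.23). Mature dendritic cells were lower in PBS at 45.5 CPM, and 182 PBS but only 49 UDSP-Hep cells were gated as such, with 90.7 CPM in the latter. In pDC it was 24.6 and 76.2 CPM and in basophils 31.9 and 130 CPM, each class with fewer than 50 cells in UDSP-Hep.

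The interval of the Ifngr1 ratio lay above equality in 7 of the 8 main classes that held 50 or more cells in both libraries, and that of gamma-delta T cells included it (1.04, 0.914 to 1.18). The share of all genes with an interval above equality, at any fold, is not given, so the 7 of 8 cannot be set beside it. Ifngr1 counted as higher in 3 of the 8 classes. CD8 T cells had 423 and 844 CPM, a ratio of 2.0 (1.89 to 2.11). In macrophages and monocytes it was 254 and 422 CPM (1.66, 1.62 to 1.71). In dendritic cells it was 158 and 258 CPM (1.63, 1.48 to 1.78), or 1.48 with clusters in place of gates, which is under the fold that counts. The cDC2 ratio was 1.24 (1.11 to 1.38) and counted as neither. Those of cDC1 (1.74) and mature dendritic cells (1.99) counted as higher, on 16 and 49 UDSP-Hep cells. Mature dendritic cells, low in Ifngr1, were 182 of the 444 PBS and 49 of the 224 UDSP-Hep dendritic cells. The part of this makeup in the class ratio was not tested. Of all genes tested, 7.86% counted as higher and 5.16% as lower in macrophages and monocytes, and 7.73% and 6.36% in dendritic cells. Another scaling of macrophages and monocytes moved the median gene by 0.11 on the log2 scale, and relative to the median gene the Ifngr1 ratio was 1.54. The subsets shared the direction: 1.53 (1.47 to 1.60) in classical monocytes, 1.65 (1.56 to 1.75) in macrophages, 1.64 (1.53 to 1.75) in other phagocytes and 1.20 (1.11 to 1.30) in nonclassical monocytes. The ratio of the whole class, 1.66, was above each of these. Nonclassical monocytes, the subset highest in Ifngr1, were 154 of the 3592 PBS and 322 of the 2295 UDSP-Hep cells. The part of this makeup in the ratio of the whole class was not tested. Other phagocytes are those that passed no subset gate, or passed the macrophage and the nonclassical monocyte gate together. NK cells had a ratio of 1.32 (1.27 to 1.38), other T cells 1.28, CD4 T cells 1.29 and Treg 1.12. Thinned shares of cells with an Ifngr1 UMI were 37.5% and 55.2% of CD8 T cells, and 20.9% and 34.5% of macrophages and monocytes, against 91.5% and 94.1%, and 69.5% and 86.2%, unthinned. In B cells the thinned shares of Ifngr1 were 8.70% and 14.5% (18.8% and 28.6% unthinned, median depths 2992 and 3094 UMIs).

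Ifngr2, the chain that brings JAK2, divided the classes the other way. Macrophages and monocytes stood at 159 and 175 CPM (1.10, 1.06 to 1.14), dendritic cells at 129 and 140 CPM (1.08, 0.965 to 1.22), and the 45 and 593 neutrophils at 130 and 147 CPM. T cell and NK cell classes ranged from 4.29 to 24.4 CPM in PBS and from 7.17 to 32.2 CPM in UDSP-Hep. NK cells, the highest in Ifngr1, were the lowest in Ifngr2, at 4.29 and 7.17 CPM. Macrophages and monocytes exceeded NK cells by 37.1 (19.5 to 81.2) in PBS and 24.4 (18.4 to 33.2) in UDSP-Hep. Among the 4 phagocyte subsets of each library Ifngr2 ranged from 154 to 176 CPM and from 169 to 179 CPM, and the intervals of neighbours in the order overlapped. In CD8 T cells it was 5.32 and 12.5 CPM (2.35, 1.44 to 3.86) from 33 and 39 UMIs, which counted as higher, but thinned to 1000 UMIs the ratio was 0.917, so the direction was not kept. At such levels RNA from phagocytes in the same droplets was not told apart from the T cells' own.

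UMIs of both receptor chains in 1 cell were counted next. Thinned to 1000 UMIs, 2.82% (2.30 to 3.41) of PBS and 5.14% (4.28 to 6.13) of UDSP-Hep macrophages and monocytes had both, close to the 2.88% and 5.16% given by the product of the chains' shares. In CD8 T cells 0 of 554 (up to 0.664%) and 2 of 453 cells (0.442%) had both, and in NK cells 0.242% and 0.290%. Treg had both in 1.16% (0.14 to 4.11) and 2.16% (0.703 to 4.96) of cells and gamma-delta T cells in 2 of 70 and 1 of 76 cells, with intervals that overlapped those of macrophages and monocytes. Unthinned, the shares were 52.3% and 64.3% of macrophages and monocytes, 53.4% and 62.9% of dendritic cells, 9.25% and 11.6% of Treg, 3.60% and 4.19% of CD8 T cells and 1.91% and 2.02% of NK cells.

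**Figure D3:**
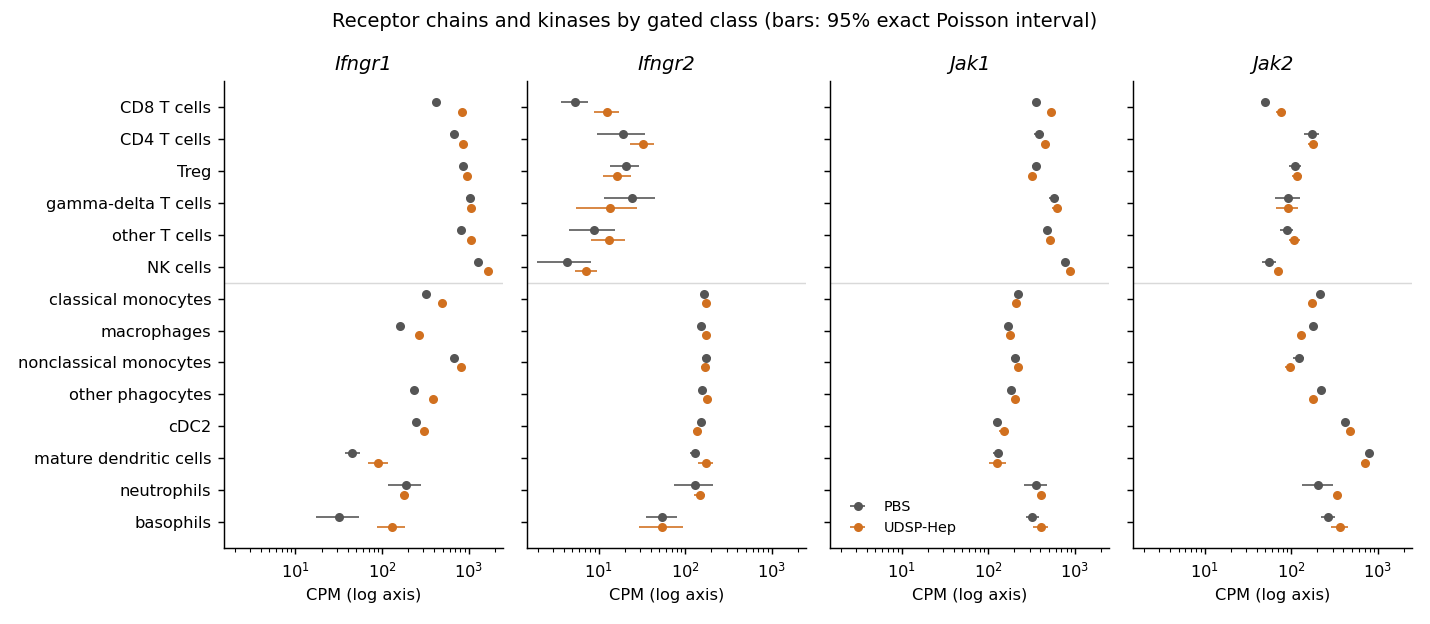
Levels of Ifngr1, Ifngr2, Jak1 and Jak2 in CPM (log axes, points with 95% exact Poisson intervals) by gated class, PBS in grey and UDSP-Hep in orange, lymphocytes above the line and myeloid classes below. Ifngr2 lies under 33 CPM in all lymphocyte classes shown and between 154 and 179 CPM in the phagocyte subsets, while Ifngr1 is highest in NK cells (1268 and 1675 CPM).

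Of the kinases, Jak1, which serves many cytokine receptors, was highest in NK cells, at 777 and 888 CPM. NK cells exceeded macrophages and monocytes, at 192 and 199 CPM, by 4.04 (3.83 to 4.27) and 4.46 (4.30 to 4.64). It counted as higher or lower in 0 of the 8 classes. Its ratio in CD8 T cells, 354 and 523 CPM, was 1.48 (1.39 to 1.58), just short of the fold that counts, and in macrophages and monocytes 1.04 (0.998 to 1.07).

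Jak2, which also serves the IL-12 and GM-CSF receptors, was highest in dendritic cells, at 495 and 506 CPM (1.02, 0.961 to 1.08). Mature dendritic cells, which carry antigen to lymph nodes, stood at 785 and 710 CPM, above cDC2 at 420 and 477 CPM by 1.87 (1.74 to 2.01) in PBS and 1.49 (1.33 to 1.66) in UDSP-Hep. Among the classes with 50 cells or more in each library CD8 T cells and NK cells were the lowest, with overlapping intervals in both. Jak2 in CD8 T cells stood at 49.9 and 76.7 CPM (1.54, 1.29 to 1.83), which counted as higher. The ratio was under that fold at 1.14 with cells thinned to 1000 UMIs, 1.39 under the stricter gate and 1.47 with median-of-ratios scaling. Macrophages and monocytes had less Jak2 in UDSP-Hep, at 198 and 151 CPM (0.764, 0.734 to 0.794), by less than the fold that counts. The 4 phagocyte subsets had ratios from 0.730 in macrophages to 0.819 in other phagocytes, each with an interval below equality. Thinning turned the direction in nonclassical monocytes, from 0.789 to 1.32. Neutrophils had 203 and 341 CPM (1.68, 1.13 to 2.63), with 45 cells in PBS.

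Irf1, the transcription factor gene with the GAS letters, had a ratio with an interval above equality in 7 of the 8 classes, and that of gamma-delta T cells included equality (1.32, 0.989 to 1.77). Here too the share of all genes with such an interval is not given. Irf1 counted as higher in CD8 T cells, Treg and CD4 T cells. CD8 T cells stood at 127 and 249 CPM (1.95, 1.76 to 2.16), Treg at 267 and 480 CPM (1.80, 1.59 to 2.04) and CD4 T cells at 183 and 321 CPM (1.75, 1.41 to 2.19). The CD4 T cell ratio was under the fold that counts at 1.36 with thinned cells and 1.41 with clusters in place of gates. In Treg 4.87% of all genes tested counted as higher and 3.96% as lower. Macrophages and monocytes had 227 and 321 CPM (1.41, 1.37 to 1.46; 1.31 relative to the median gene), dendritic cells 206 and 306 CPM (1.49, 1.37 to 1.61) and NK cells 155 and 213 CPM (1.37, 1.21 to 1.55). The highest level of UDSP-Hep was in neutrophils, 885 CPM against 373 CPM in the 45 PBS neutrophils (2.37, 1.77 to 3.26), and basophils, 92 and 48 cells, had 152 and 508 CPM (3.33, 2.45 to 4.56). The Irf1 interval also lay above equality within each CD8 subset: 1.89 (1.61 to 2.21) in cells with Pdcd1 and no Tcf7, 2.54 (1.81 to 3.6) in cells with both, 1.60 (1.12 to 2.3) in cells with neither, 1.34 (1.11 to 1.62) in cells with Tcf7 and no Pdcd1, and 2.07 (1.61 to 2.63) in cycling cells.

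**Figure D4:**
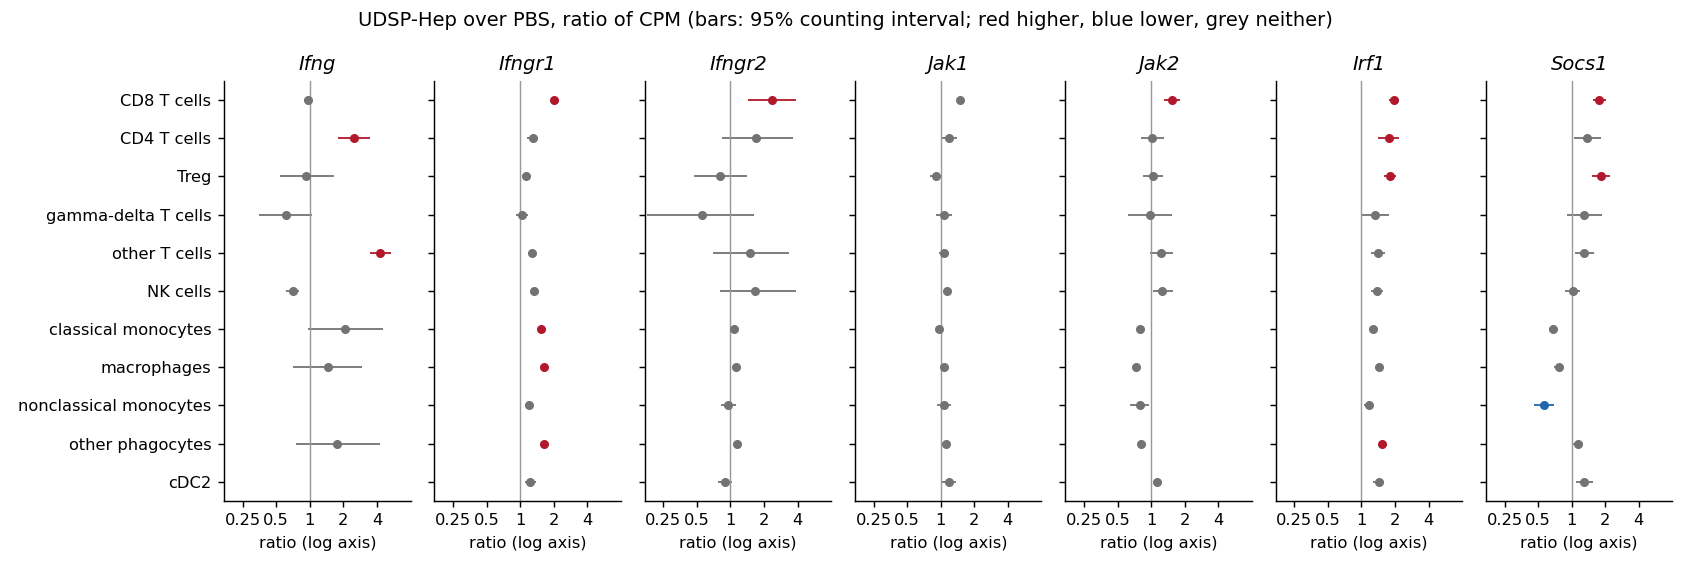
Ratio of CPM, UDSP-Hep over PBS (log axes), of the 7 members by gated class, with 95% intervals for counting error; red points counted as higher, blue as lower and grey as neither, and classes with a library at 0 have no point. Irf1 points lie to the right of 1 in all classes shown, from 1.16 in nonclassical monocytes to 1.95 in CD8 T cells, while Socs1 points lie on both sides.

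Socs1, the brake of the chain, had ratios above equality in T cell classes and below it in monocytes. CD8 T cells stood at 73.6 and 130 CPM (1.77, 1.55 to 2.03) and in Treg at 110 and 200 CPM (1.82, 1.5 to 2.22), and both counted as higher. These ratios were under that fold at 1.43 in CD8 T cells with every cell weighed the same and at 1.49 in Treg with thinned cells. Within the CD8 subsets the Socs1 ratio was 1.56 (1.22 to 1.99) in cells with Pdcd1 and no Tcf7 and 1.88 (1.25 to 2.87) in cells with both. Its interval included equality in cells with Tcf7 and no Pdcd1 (1.12, 0.895 to 1.4), in cells with neither (1.0, 0.596 to 1.7) and in cycling cells (1.53, 0.979 to 2.32). The CD8 T cells that were not cycling had 103 and 141 CPM of Socs1 (1.36, 1.17 to 1.58), under the fold that counts. Cycling CD8 T cells had 42.7 and 65.3 CPM and numbered 149 and 25. The part of this makeup in the Socs1 ratio of all CD8 T cells was not tested. CD4 T cells had 119 and 163 CPM (1.38, 1.04 to 1.84) and other T cells 125 and 162 CPM (1.29, 1.06 to 1.58), while NK cells had 109 and 111 CPM (1.02, 0.876 to 1.19). The interval of gamma-delta T cells included equality (1.29, 0.906 to 1.86), and their lowest ratio over the alternatives was 0.963. In macrophages and monocytes Socs1 was at 122 and 93.2 CPM (0.762, 0.725 to 0.802). Classical monocytes, with the highest PBS level of the phagocyte subsets, had 164 and 111 CPM (0.676, 0.626 to 0.730), macrophages 88.7 and 67.8 CPM (0.764, 0.692 to 0.843; 1.03 with thinned cells) and nonclassical monocytes 123 and 69.1 CPM (0.562, 0.454 to 0.697), which counted as lower, as did 3.02% of all genes tested in that subset (5.85% counted as higher). The other phagocytes went the other way, at 103 and 118 CPM (1.14, 1.03 to 1.27), as did cDC2 at 87.7 and 113 CPM (1.29, 1.08 to 1.55). The cDC1, which cross-present antigen, had 63.5 and 17.5 CPM (0.276, 0.0881 to 0.664), from 79 PBS and 16 UDSP-Hep cells and 5 UMIs in the latter. Neutrophils, with 45 PBS cells, had 251 and 155 CPM (0.615, 0.421 to 0.926).

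Irf1 and Socs1 thus had ratios above equality together in CD8 T cells, Treg, CD4 T cells, other T cells, other phagocytes and cDC2. In classical monocytes, macrophages and nonclassical monocytes the Irf1 ratio was above equality (1.27, 1.44 and 1.16) and the Socs1 ratio below it, though with thinned cells Socs1 in macrophages was at 1.03. Neutrophils (Irf1 2.37, Socs1 0.615) and cDC1 (Irf1 1.49, Socs1 0.276) had the same pair of directions, on few cells in 1 library.

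**Figure D5:**
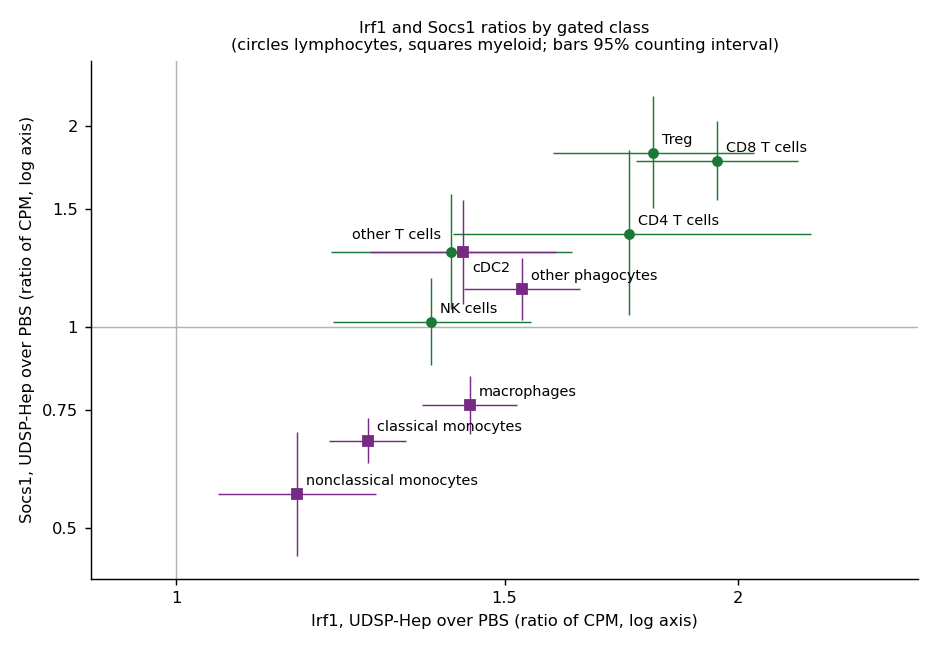
Ratio of Socs1 against ratio of Irf1 (UDSP-Hep over PBS, log axes) for 10 gated classes, circles for lymphocytes and squares for myeloid classes, with 95% intervals for counting error. All classes shown lie to the right of 1 for Irf1; classical monocytes, macrophages and nonclassical monocytes lie below 1 for Socs1 (0.676, 0.764 and 0.562), and macrophages were at 1.03 with thinned cells.

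Genes that drive Ifng were read from a list of 14. CD8 T cells had 3 of the 10 that were measured higher and 0 lower: Il2, the T cell growth factor, at 3.87 and 14.4 CPM, Stat4, which relays IL-12, at 70.7 and 107 CPM (1.51), and Il12rb2, an IL-12 receptor chain, at 29.5 and 44.3 CPM (1.5). The median log2 ratio of the list was 0.45 there, against 0.05 over all genes tested. Tbx21 and Eomes, the transcription factors that open the Ifng gene, counted as neither, at 54.4 and 69.0 CPM and at 97.3 and 89.6 CPM. In NK cells 0 of 10 counted in either direction (median 0.06, all genes 0.06), with Eomes at 491 and 432 CPM. In Treg 1 of 7 counted as higher, Il18rap, and in other T cells 2 of 9 as lower, Il2 at 26.7 and 3.16 CPM and Eomes at 77.2 and 49.9 CPM. Macrophages and monocytes supply IL-12 and IL-18, and there 5 of 14 counted as higher and 1 as lower, but all 6 were under 4 CPM: Il12a stood at 1.05 and 2.45 CPM and Il12b at 0.944 and 0.326 CPM. Il18 stood at 24.4 and 23.1 CPM there. In dendritic cells 1 of 10 counted as higher and 3 as lower, among them Stat4 at 92.0 and 53.2 CPM and Il15, a cytokine that sustains NK cells, at 22.7 and 14.4 CPM (0.636), while Il12b stood at 64.8 and 78.1 CPM and counted as neither. The subsets were 79, 183 and 182 PBS cells (cDC1, cDC2, mature) and 16, 159 and 49 UDSP-Hep cells, so the class differed in its makeup. Of all genes tested, 12.7% counted as higher and 9.13% as lower in CD8 T cells, and 5.07% and 2.58% in NK cells. These shares were 4.87% and 3.96% in Treg, and 4.84% and 3.05% in other T cells. In macrophages and monocytes they were 7.86% and 5.16%, and in dendritic cells 7.73% and 6.36%.

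Of 15 other transducers and brakes, 1 counted as higher and 0 as lower in CD8 T cells: Socs3, a brake related to Socs1, at 36.1 and 95.7 CPM (2.65, 2.22 to 3.16). Among phagocytes 0 counted as higher and 1 as lower, Cish, another SOCS family gene, at 109 and 71.3 CPM (0.653, 0.617 to 0.691). Dendritic cells had 1 higher, Socs3 at 144 and 250.1 CPM (1.73), and 1 lower, Irf8, the factor of cDC1 development, at 931 and 503 CPM (0.540). The cDC1 were 79 of the 444 PBS and 16 of the 224 UDSP-Hep dendritic cells, and the part of this in Irf8 was not tested. Treg had 2 higher and 0 lower, Irf8 (1.63) and Socs3 (1.51). In NK cells and other T cells 0 of the 15 counted in either direction. The median log2 ratios ran from 0.00 in macrophages and monocytes, where that over all genes was 0.10, to 0.17 in Treg, where it was 0.03. Of all genes tested, 12.7% counted as higher in CD8 T cells and 4.87% in Treg, and 5.16% as lower in macrophages and monocytes. In dendritic cells 7.73% counted as higher and 6.36% as lower.

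Target genes of the interferon were read from a list of 24. Of the 21 measured in CD8 T cells, 11 were higher and 0 lower by the rule (median log2 ratio 0.61, all genes 0.05), beside 12.7% of all genes. They included Iigp1 and Irgm2, GTPases of defence against microbes, at 10.2 and 29.2 CPM and at 21.5 and 49.8 CPM. Cxcl9, a chemokine made mainly by myeloid cells, stood at 3.39 and 39.8 CPM and Cd74, a class II chaperone of antigen-presenting cells, at 113 and 241 CPM (2.14). In the same cells the summed macrophage and monocyte markers stood at 124 and 217 CPM and those of mature dendritic cells at 59.7 and 138 CPM, and their part in Cxcl9 and Cd74 was not tested. Psmb8 and Tap1, of peptide processing for class I molecules, counted as neither (497 and 415 CPM, 241 and 277 CPM).

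Of 23 targets measured in macrophages and monocytes, 1 counted as higher and 0 as lower, beside 7.86% of all genes: Gbp5, a guanylate-binding protein gene, at 69.9 and 130 CPM (1.87, 1.77 to 1.96). The list's median log2 ratio was 0.19, against 0.10 over all genes tested there. Cxcl9 stood at 357 and 460 CPM (1.29) and Cxcl10 at 399.5 and 403 CPM in these cells. Dendritic cells had 5 of 23 higher and 0 lower (median 0.24), with Cxcl10 at 84.0 and 279 CPM (3.32, 2.98 to 3.69), Cxcl9 at 245 and 461 CPM (1.88) and Gbp5 at 84.7 and 151 CPM. The class held 79, 183 and 182 PBS cells (cDC1, cDC2, mature) and 16, 159 and 49 UDSP-Hep cells. Its summed macrophage and monocyte markers stood at 626 and 1027 CPM. The part of either difference in these targets was not tested. NK cells had 4 of 22 higher, Cd74, Cxcl10, Iigp1 and Gbp5. In gated NK cells the summed macrophage and monocyte markers stood at 127 and 268 CPM and neutrophil markers at 12.9 and 77.3 CPM. The part of RNA from those cells in the 4 genes was not tested. Treg had 5 higher, among them Icam1 at 98.1 and 184 CPM, and 1 lower, Ciita, of 22. Other T cells had 1 higher, Gbp5 (1.53), and 2 lower, Iigp1 at 168 and 58.1 CPM and Cxcl10 at 68.3 and 35.4 CPM, of 21. Of all genes, 7.73% counted as higher in dendritic cells, 5.07% in NK cells, 4.87% in Treg and 4.84% in other T cells. Those that counted as lower were 3.96% in Treg and 3.05% in other T cells. Gbp5 was the target that counted as higher in all 6 classes read, and it was singled out after its values were seen.

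Other lists differed between the libraries in the same cells. Immediate early genes, which answer activation and also tissue dissociation, counted as higher for 8 of 10 in CD8 T cells (summed 1500.4 and 3249 CPM), 7 in NK cells, 6 in Treg, 6 in other T cells, 9 in dendritic cells and 2 in macrophages and monocytes. Of the same genes 1 counted as lower in NK cells, 1 in Treg and 1 in other T cells, and 0 in the remaining classes. Heat shock genes counted as lower for 5 of 7 in CD8 T cells and in macrophages and monocytes, 4 in NK cells, 4 in other T cells and 2 each in Treg and dendritic cells. Of 9 genes stimulated by type I interferon, 2 counted as higher and 1 as lower in CD8 T cells, 0 and 1 in macrophages and monocytes, 3 and 0 in dendritic cells, 1 and 1 in Treg, 0 and 3 in NK cells, and 0 and 6 of the 8 measured in other T cells. The part of these differences in Irf1 and Socs1, which other signals can also induce, was not tested. Of all genes tested, 12.7% counted as higher and 9.13% as lower in CD8 T cells, and 5.07% and 2.58% in NK cells. The shares were 4.87% and 3.96% in Treg, and 4.84% and 3.05% in other T cells. In macrophages and monocytes they were 7.86% and 5.16%, and in dendritic cells 7.73% and 6.36%.

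The genes with the pattern most like each member were sought over 16 values, 8 classes in 2 libraries, among 5570 genes, as Pearson's r of log2(CPM + 10). The points share libraries and depth, so r is a description. Irf1 was most like Nfkbid (r = 0.83) and Gbp5 (0.80), Socs1 like Itsn2 (0.83) and Jak2 like Ece1 (0.97) and Vdr (0.96). Ifngr1 was most like Ptprc (0.97), the gene of the CD45 protein used in the sort, Ifngr2 like Gpx1 (0.98), Jak1 like Txk (0.97), a kinase gene of T and NK cells, and Ifng like Nop56 (0.93).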

How the data were processed

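The authors deposited whole-number UMI counts for each gene in each cell barcode. Cell Ranger 7.0.0, Seurat and mm10 stand in the submitters' processing notes with no step assigned. How barcodes were selected before deposit is not stated; the lowest total was 500 UMIs. Cells with at least 200 genes and under 10% mitochondrial UMIs were kept, which removed 245 PBS and 197 UDSP-Hep barcodes. Replicates were not available: each group is 1 library.

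Classes were gated by the number of markers with a UMI: 3 of 6 for T cells, 3 of 7 for NK cells that were not T cells, 3 of 6 for B cells, pDC and basophils, 2 of 6 for eosinophils, 4 of 8 for neutrophils, 4 of 6 for macrophages and monocytes, and 3 of 5 for cDC1 and mature dendritic cells. cDC2 had 2 of 4 dendritic and 2 of 5 cDC2 markers. Dendritic cells had at most 1 of 3 macrophage markers. CD8 T cells had a UMI of Cd8a or Cd8b1 and none of Cd4 or Foxp3, and phagocyte subsets had at least 4 of their own markers. The number of markers asked for was set after the marker distributions were seen. Names are those of the gates, not the authors'. Doublets: Scrublet's own threshold (scanpy 1.11.5) marked 0.0138% and 0.0129% of barcodes and did not work, so cells of more than 1 lineage were left out, and an alternative also removed the highest scores at 0.8% per 1000 barcodes.

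UMIs were summed per class and library and given as CPM, with exact Poisson intervals. Ratios have exact conditional binomial intervals and shares Clopper-Pearson intervals, at 95%; all cover counting error only. Genes with at least 20 UMIs over both libraries were tested against the fold of 1.5. Median-of-ratios scaling used genes with at least 20 UMIs in each library. The rule for named genes: members in classes of 50 or more cells; of each list, in classes of 100 or more cells in both libraries, up to 4 genes that counted, by the interval bound nearest equality, and up to 2 that did not; and the 5 genes most like each member among those reaching 50 CPM. The members and lists were chosen with earlier results of these data known. A transducer gene is not reported here. Mx1 of the type I list was not found among the symbols. Ratios were recomputed under 7 alternatives set out beforehand (highest doublet scores left out, a mitochondrial limit of 20%, thinning, equal weight per cell, median-of-ratios scaling, a stricter gate, clusters) and 2 added after the data were seen (without the top cell, and at most 10 UMIs per cell). The ratio and the call rule were tested on simulated Poisson counts without spread between cells, so that test does not cover genes as uneven between cells as Ifng. scipy 1.17.1, numpy 2.4.6 and pandas 2.3.3 were used.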

Additional observations from a re-analysis of the deposited data

Results flagged for a closer look

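For 3 members the ratio lay on opposite sides of equality in 2 classes, each with an interval that left equality out. Ifng had a ratio of 4.30 in other T cells and 0.70 in NK cells. The former was 1.15 with at most 10 Ifng UMIs counted per cell. Jak2 had a ratio of 1.54 in CD8 T cells (1.14 with thinned cells) and 0.764 in macrophages and monocytes. Socs1 had a ratio of 1.77 in CD8 T cells and 0.762 in macrophages and monocytes. The differences between the classes were not tested, since each group has 1 library.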

How the results depend on the processing

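No paired analysis was possible because each group has 1 library. Of 751 member ratios recomputed under an alternative, 648 lay within the interval of the reported ratio, and 1 that had counted as higher changed direction, Ifngr2 in CD8 T cells at 0.917 with cells thinned to 1000 UMIs. Thinning gave CD8 T cell ratios of 1.26 for Ifng, 1.69 for Irf1 and 2.23 for Socs1, and in macrophages and monocytes 1.78 for Ifngr1, 1.51 for Irf1 and 0.838 for Socs1. It gave NK shares of the Ifng UMIs of 27.9% and 35.7%, and 2 higher targets in macrophages and monocytes. Weighing every cell the same gave 1.35 for Ifng, 1.68 for Irf1 and 1.43 for Socs1 in CD8 T cells, 1.74 for Ifngr1 in macrophages and monocytes, NK shares of 27.7% and 38.4%, and also 2 higher targets. A fold of 2 left 0 higher targets there. Median-of-ratios scaling gave 1.54 for Ifngr1, 0.710 for Jak2, 1.31 for Irf1 and 0.709 for Socs1 in macrophages and monocytes. The stricter gate gave 0.852 for Ifng in CD8 T cells, 1.37 for Irf1 in macrophages and monocytes, and NK shares of 9.11% and 18.4%. Clusters in place of gates gave 1.37 for Ifng in CD8 T cells and 1.46 for Irf1 in macrophages and monocytes. Leaving out the highest doublet scores gave NK shares of 12.8% and 24.9%. At most 10 UMIs per cell gave 0.837 for Ifng in CD8 T cells and 1.59 for Ifngr1 in macrophages and monocytes. The causes were not tested. Depth limits Ifngr2 in lymphocytes (33 and 39 UMIs in CD8 T cells), and no replicate exists to show the spread between animals.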
